A study of Mus musculus with 9 samples.

Results

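The dual-specificity MAP kinase phosphatases are enzymes that switch MAP kinases off, and 8 of their genes, Dusp1, Dusp2, Dusp4, Dusp5, Dusp6, Dusp7, Dusp10 and Dusp16, were followed in neutrophils from 3 compartments of tumor-bearing mice. They were picked by gene name from the 46517 genes listed, and all 8 had at least 5 reads in at least 1 library, so each was tested. Levels of the members differed between the 3 compartments. Dusp4, Dusp5 and Dusp10 were higher in tumor libraries, which also held reads of other cells, than in both blood and bone marrow. Dusp6 was highest in blood, and Dusp16 was about 13-fold higher in blood than in bone marrow with no call between blood and tumor. Dusp1 was by far the most abundant member everywhere.

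The neutrophils came from C57BL/6 mice, strain as labelled, in which pancreatic ductal adenocarcinoma cells had been transplanted into the pancreas (orthotopic transplanted, OT, mice). They were sorted on day 27 as live CD45+ cells that lacked CD3, B220 and NK1.1 and carried Ly6G and Ly6C, from bone marrow (labelled Ly6G.hi), blood (Ly6G+) and the tumor (Ly6G+), and each of the 3 libraries per compartment was made from a pool of 5 OT mice. All mice bore tumors and carried no engineered allele that the labels name, so no compartment is a tumor-free control; libraries from tumor-free mice were not analysed here. The model is 1 transplanted tumor cell line, and tumors were digested with enzymes while blood was only lysed for red cells, so tissue handling and compartment cannot be told apart.

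Most MAP kinases are active only while a threonine and a tyrosine in their activation loop are both phosphorylated. The dual-specificity phosphatases remove both phosphates. The family is usually sorted by where its members sit and what they act on. Dusp1, Dusp2, Dusp4 and Dusp5 are nuclear and are themselves induced rapidly by the pathways they shut off; Dusp6 and Dusp7 are cytoplasmic and prefer ERK; Dusp10 and Dusp16 prefer the stress kinases JNK and p38. In myeloid cells these enzymes are best known for limiting the duration of inflammatory signaling, with Dusp1 restraining p38 and JNK after microbial stimulation.

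The values were log2 FPKM, which is reads per kilobase of gene length, scaled by library size, on a log2 scale, and they returned whole reads for every gene. Recovered reads per library numbered 7108871 to 7949367 for bone marrow, 4580807 to 6830374 for blood and 5446499 to 6969557 for tumor. All 10 neutrophil markers had reads in every library, but their sum was lower in tumor, at 9519 to 11929 RPM (reads scaled by library size, like FPKM but without gene length), than in blood, at 40300 to 43037, or bone marrow, at 54080 to 57879. Tumor libraries also held reads of other cells, with every marker of the 3 lists that follow read in each of them. The 8 tumor epithelium markers summed to 2513 to 4782 RPM there, against 25.4 to 172 in blood and 10.1 to 13.0 in bone marrow, the 7 acinar markers to 711 to 2735 against at most 9.31 elsewhere, and the 6 fibroblast markers to 964 to 1107 against at most 9.72. No library was labelled as anything but neutrophils, and the part of other cells in the tumor values of each phosphatase was not tested. In bulk samples, fewer cells of a type, less RNA per cell and lower expression of its marker genes cannot be told apart.

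Promoter sequence is shown for 4 members because their genes followed different patterns across the compartments. RefSeq promoters of build GRCm38.p6 were matched for 7 of the 8 members, and Dusp4 was not matched. Each run is the 250 bases before the RefSeq start, written 5′ to 3′ on the strand of the gene, at chr17:26508473-26508722 (minus strand) for Dusp1, chr19:53528895-53529144 (plus) for Dusp5, chr10:99262981-99263230 (plus) for Dusp6 and chr6:134792629-134792878 (minus) for Dusp16. Capitals mark matches to the cAMP response element (CRE, TGACGTCA), its core (TGACG) and the CArG box, the sequence that serum response factor recognises.
Dusp1: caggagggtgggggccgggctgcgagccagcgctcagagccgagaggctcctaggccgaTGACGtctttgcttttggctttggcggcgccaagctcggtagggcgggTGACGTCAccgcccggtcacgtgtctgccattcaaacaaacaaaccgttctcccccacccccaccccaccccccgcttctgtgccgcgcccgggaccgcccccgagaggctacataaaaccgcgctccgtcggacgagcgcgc
Dusp5: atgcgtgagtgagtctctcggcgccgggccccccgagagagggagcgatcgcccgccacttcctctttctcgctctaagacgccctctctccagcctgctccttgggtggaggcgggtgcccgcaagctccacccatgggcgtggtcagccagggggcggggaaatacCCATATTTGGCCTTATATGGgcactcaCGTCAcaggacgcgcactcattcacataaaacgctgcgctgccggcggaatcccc
Dusp6: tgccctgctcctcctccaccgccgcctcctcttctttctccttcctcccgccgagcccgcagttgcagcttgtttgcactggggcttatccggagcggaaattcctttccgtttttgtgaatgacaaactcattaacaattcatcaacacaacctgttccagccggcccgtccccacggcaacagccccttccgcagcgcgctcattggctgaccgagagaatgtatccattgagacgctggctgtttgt
Dusp16: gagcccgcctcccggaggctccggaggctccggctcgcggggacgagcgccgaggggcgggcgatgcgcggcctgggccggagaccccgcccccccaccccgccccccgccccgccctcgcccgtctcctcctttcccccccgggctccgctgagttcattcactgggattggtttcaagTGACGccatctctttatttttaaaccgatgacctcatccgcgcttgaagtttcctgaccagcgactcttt
The search covered both strands, and the CRE and its core overlap. The Dusp1 promoter held a whole CRE from 143 to 136 bases before the start and a second core from 191 to 187 bases before it. The Dusp5 promoter held 2 adjacent CArG boxes, from 82 to 73 and from 72 to 63 bases before the start, and a CRE core from 55 to 51. The Dusp16 promoter held 1 CRE core, from 70 to 66 bases before the start, and Dusp6 held none of the letters searched. Of 32851 mouse promoters of the same length, 1.55% held the CRE, 17.8% its core and 1.47% a CArG box. The AP-1 letters TGANTCA (in 6.75% of promoters), the NF-kB site (7.25%) and TATAAA (12.4%) were in none of the 7 promoters, while the hypoxia-response core ACGTG (16.6%) was in those of Dusp1, Dusp2 and Dusp5. These matches describe the letters in the window, and binding to them was not measured.

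Differences between compartments were tested with limma over 17714 genes, with Benjamini-Hochberg adjustment of p over all of them and a threshold of 0.05. Compared with blood, 5 of the 8 members were higher in tumor (Dusp1, Dusp2, Dusp4, Dusp5 and Dusp10), beside 33.8% of all genes tested, and Dusp6 was lower, beside 21.1%; 54.9% of genes were called in either direction. Compared with bone marrow, 6 were higher in tumor (Dusp1, Dusp4, Dusp5, Dusp6, Dusp10 and Dusp16), beside 26.9% of all genes, and limma called 0 lower, beside 19.5% (46.5% either way); the count at an unadjusted p under 0.05 was also 0, as it was by limma-voom. Blood exceeded bone marrow for 4 members (Dusp1, Dusp5, Dusp6 and Dusp16), beside 13.7% of all genes, and 0 were lower, beside 18.1% (31.8% either way), again with 0 at the unadjusted threshold and 0 by limma-voom. Dusp1, Dusp4, Dusp5 and Dusp10 exceeded blood and bone marrow alike in tumor, beside 20.8% of all genes. The median difference over the 8 members was 1.79 between tumor and blood, 2.88 between tumor and bone marrow and 1.26 between blood and bone marrow on the log2 scale, where all genes tested had medians of 0.50, 0.29 and 0.00. The comparisons share libraries, and no test was made of the members against other genes.

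Scaling bears on these directions, since more genes were called higher than lower in tumor. The deposited values rest on library sizes that had been scaled by 0.840 ± 0.043 (SD, n = 3) for bone marrow, 0.841 ± 0.023 for blood and 1.15 ± 0.069 for tumor. Of the genes called between tumor and blood, 61.6% were higher in tumor, against 73.9% with plain library totals and 41.4% with the median of each library set equal. The same share was 58.0%, 74.0% and 41.1% between tumor and bone marrow, and 43.1%, 44.0% and 57.8% were higher in blood than in bone marrow. Plain totals raised the median tumor-to-blood difference of all genes by 0.39 and the tumor-to-bone-marrow one by 0.43, whereas median centring lowered them by 0.75 and 0.48 and raised that between blood and bone marrow by 0.27.

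**Figure D1:**
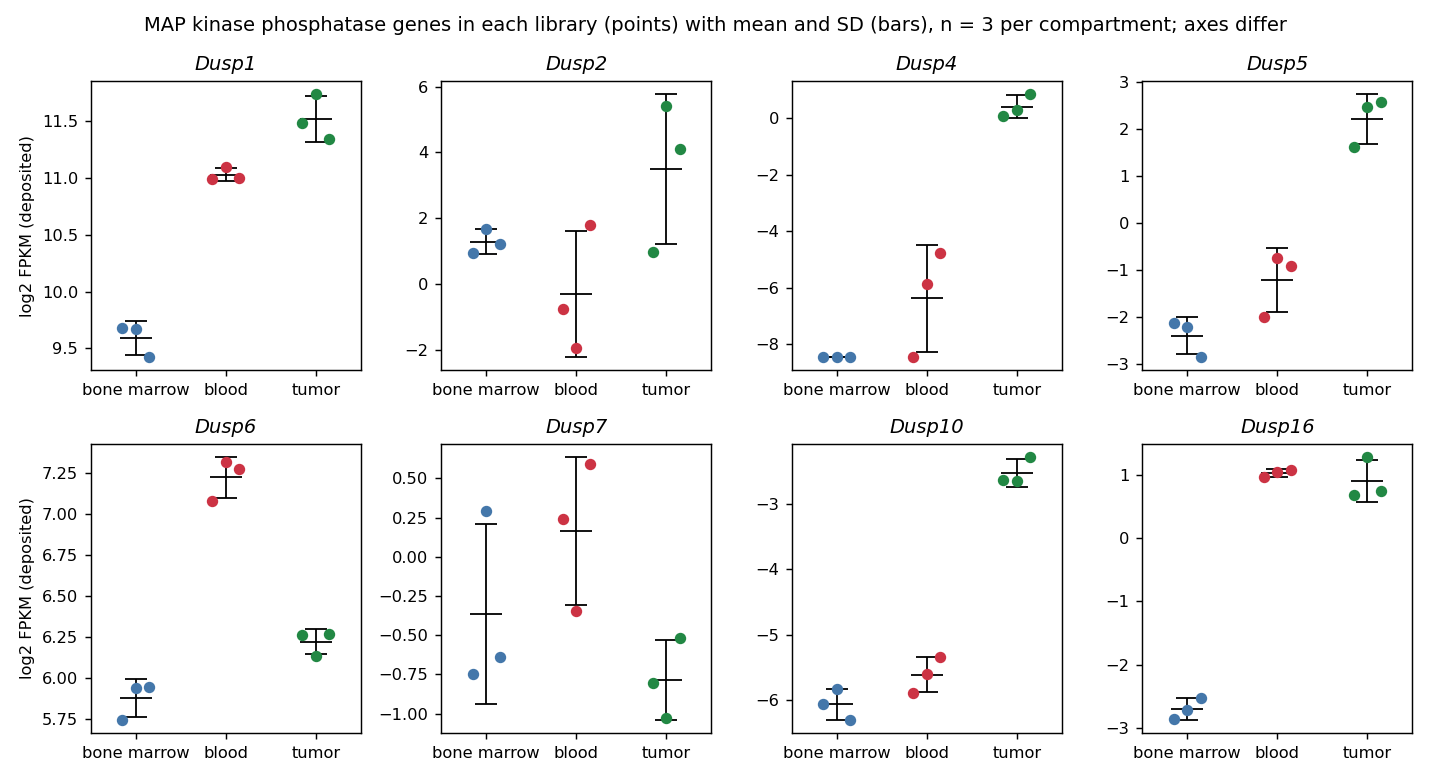
Deposited log2 FPKM (vertical axes, which differ between panels) of the 8 genes in each of the 9 libraries (points, 3 per compartment), with mean and SD (bars). Dusp4, Dusp5 and Dusp10 separate tumor from the other compartments, Dusp16 separates bone marrow from the rest, Dusp6 peaks in blood, and Dusp2 varies between libraries of the same compartment; the lowest Dusp4 points, at -8.45, are libraries with 0 reads.

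Among the nuclear, inducible members, Dusp1 (ENSMUSG00000024190.6, chr17:26505590-26562128, minus strand, GRCm38), which dephosphorylates p38 and JNK in particular, had 16112, 13496 and 13361 reads in bone marrow, 23615, 35895 and 28118 in blood and 52100, 75682 and 60311 in tumor. Its log2 FPKM was 9.68, 9.67 and 9.42 in the bone marrow libraries, 10.994, 11.099 and 10.999 in blood and 11.48, 11.74 and 11.34 in tumor. The 3 compartments did not overlap, with bone marrow lowest and tumor highest on the deposited scale. Blood exceeded bone marrow by 1.44 (SE 0.13, limma adjusted p = 1.97e-05), a 2.71-fold difference, and tumor exceeded bone marrow by 1.93 (SE 0.13, adjusted p = 1.16e-06), a 3.81-fold difference. The step from blood to tumor was smaller, 0.49 (SE 0.13, adjusted p = 0.0085), and it turned to -0.26 (adjusted p = 0.179) with median centring and to -0.15 (adjusted p = 0.473) with quantile normalization. The direction of Dusp1 between blood and tumor therefore depended on the scaling, whereas its lower level in bone marrow held under each of the 23 alternatives. The printed locus is the GENCODE M21 model, which spans 56539 bases, whereas the deposited values used a length of 2930; the promoter shown above lies inside the longer model. The gene Ergic1, on the opposite strand, overlaps only that longer model and had 5253 reads in all libraries against 318690 for Dusp1.

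Dusp2 (ENSMUSG00000027368.6, chr2:127336159-127338376, plus strand), a phosphatase known mainly from activated blood cells, was the least even member. It had 28, 40 and 34 reads in bone marrow, 5, 3 and 36 in blood and 27, 708 and 303 in tumor. Tumor replicates 2 and 3 stood above every other library, while tumor replicate 1 lay within the range of bone marrow and below blood replicate 3. The difference between tumor and blood was 3.8 (SE 1.1, adjusted p = 0.0127) although the groups overlapped, and it missed the threshold in 6 of 23 alternatives, with adjusted p = 0.0592, 0.0725 and 0.0615 when blood replicate 2, tumor replicate 2 or tumor replicate 3, in that order, was left out. Between tumor and bone marrow it was 2.22 (SE 1.1, adjusted p = 0.12), but 3.48 (adjusted p = 0.0186) without tumor replicate 1. Between blood and bone marrow it was -1.58 (95% interval -4.01 to 0.84, adjusted p = 0.322).

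Dusp4 (ENSMUSG00000031530.6, chr8:34807297-34819894, plus strand), which acts on ERK and JNK in the nucleus, was close to silent outside the tumor. Bone marrow libraries had 0 reads each, blood libraries had 0, 1 and 2, and tumor libraries had 83, 118 and 181. The tumor libraries stood clear of all 6 others. Taking 3 reads over the group as the limit that a count of 0 allows, Dusp4 was at least 111-fold higher in tumor than in bone marrow (limma adjusted p = 3.6e-05). Against the 3 reads of blood the ratio was 83.4, with an exact 95% counting interval of 28.3 to 406 that covers counting error only, and limma gave adjusted p = 0.000184. Blood and bone marrow did not pass the test (adjusted p = 0.136) on 3 reads against 0, so a difference between them was not detectable at this depth; the adjusted p was 0.0168 without blood replicate 1.

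Dusp5 (ENSMUSG00000034765.6, chr19:53529109-53542431, plus strand), an ERK-specific nuclear phosphatase that also holds ERK in the nucleus, had 20, 16 and 12 reads in bone marrow, 13, 44 and 33 in blood and 252, 557 and 627 in tumor. Its log2 FPKM was -2.14, -2.22 and -2.85 in bone marrow, -2.002, -0.75 and -0.91 in blood and 1.61, 2.47 and 2.57 in tumor. Each tumor library lay above every blood library and each of these above every bone marrow library. Tumor exceeded blood by 3.44 (SE 0.40, adjusted p = 4.25e-05), a 10.8-fold difference, and bone marrow by 4.62 (SE 0.40, adjusted p = 6.62e-06), a 24.6-fold difference. Both held under each alternative. The step from bone marrow to blood, 1.18 (SE 0.40, adjusted p = 0.0446), sat at the threshold and missed it in 14 of 23 alternatives (adjusted p 0.0102 to 0.413 over all of them), 7 of which left out a library. These were each bone marrow library, blood replicates 2 and 3 and tumor replicates 2 and 3, with adjusted p of 0.0634 to 0.151.

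The cytoplasmic ERK phosphatase Dusp6 (ENSMUSG00000019960.7, chr10:99263231-99267489, plus strand), a classical feedback inhibitor whose transcription follows ERK activity, went the other way. It had 1528, 1481 and 1742 reads in bone marrow, 2278, 3785 and 3091 in blood and 2028, 2263 and 2608 in tumor. On the log2 FPKM scale these were 5.75, 5.94 and 5.95 in bone marrow, 7.08, 7.31 and 7.27 in blood and 6.26, 6.14 and 6.27 in tumor. Blood was highest without overlap, and tumor lay just above bone marrow. Tumor fell below blood by 1.0 (SE 0.11, adjusted p = 3.13e-05), and blood exceeded bone marrow by 1.35 (SE 0.11, adjusted p = 1.07e-05); both calls held under all alternatives, with differences of -1.75 to -0.51 and 1.17 to 1.62. The excess of tumor over bone marrow was 0.34 (SE 0.11, adjusted p = 0.0265). It turned to -0.14 (adjusted p = 0.402) with median centring and missed the threshold if bone marrow replicate 1 was left out (adjusted p = 0.109), without tumor replicate 1 (adjusted p = 0.0647) and without the variance trend (adjusted p = 0.137).

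Dusp7 (ENSMUSG00000053716.9, chr9:106368632-106375724, plus strand), the close relative of Dusp6, was low throughout. It had 28, 49 and 30 reads in bone marrow, 33, 31 and 50 in blood and 25, 26 and 39 in tumor. Tumor was below blood without overlap on the log2 FPKM scale, at -0.80, -1.03 and -0.52 against 0.24, -0.34 and 0.59, and the bone marrow values lay across both. The difference between tumor and blood was -0.95 (95% interval -1.82 to -0.07, adjusted p = 0.0633), which missed the threshold; the adjusted p was 0.0365 without blood replicate 2, 0.00456 with median centring and 0.0125 with quantile normalization. Tumor and bone marrow differed by -0.42 (95% interval -1.30 to 0.46, adjusted p = 0.406), and blood and bone marrow by 0.53 (95% interval -0.35 to 1.40, adjusted p = 0.365).

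Of the members that act on stress kinases, Dusp10 (ENSMUSG00000039384.8, chr1:184013302-184075636, plus strand) had 6, 6 and 5 reads in bone marrow, 4, 7 and 7 in blood and 62, 75 and 102 in tumor. As with Dusp4, the tumor libraries stood clear of the other 6, which had a handful of reads each. Tumor exceeded blood by 3.09 (SE 0.45, adjusted p = 0.000197), an 8.53-fold difference, and bone marrow by 3.55 (SE 0.45, adjusted p = 9.51e-05), an 11.7-fold difference. Both calls held under the 22 alternatives in which the gene was tested. Blood and bone marrow differed by 0.45 (95% interval -0.55 to 1.45, adjusted p = 0.51), and at this depth a difference in either direction remains possible.

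Dusp16 (ENSMUSG00000030203.16, chr6:134715468-134792625, minus strand), a JNK phosphatase, was lower in bone marrow than in blood and tumor. It had 71, 66 and 89 reads in bone marrow, 596, 889 and 765 in blood and 769, 1421 and 1028 in tumor. Its log2 FPKM was -2.86, -2.72 and -2.52 in bone marrow, 0.97, 1.05 and 1.08 in blood and 0.68, 1.28 and 0.75 in tumor. Bone marrow lay far below the other compartments, and the blood values fell within those of tumor. Blood exceeded bone marrow by 3.73 (SE 0.18, adjusted p = 3.54e-07), a 13.3-fold difference, and tumor exceeded bone marrow by 3.60 (SE 0.18, adjusted p = 1.47e-07), a 12.2-fold difference. Tumor and blood differed by -0.13 (95% interval -0.51 to 0.26, adjusted p = 0.562); this became 0.32 (adjusted p = 0.125) with plain library totals and -0.88 (adjusted p = 0.00227) with median centring. An antisense gene at the locus, RP23-246J18.4, had 154 reads in all libraries against 5694 for Dusp16, and whether counting used strand is not given in the sources used here.

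**Figure D2:**
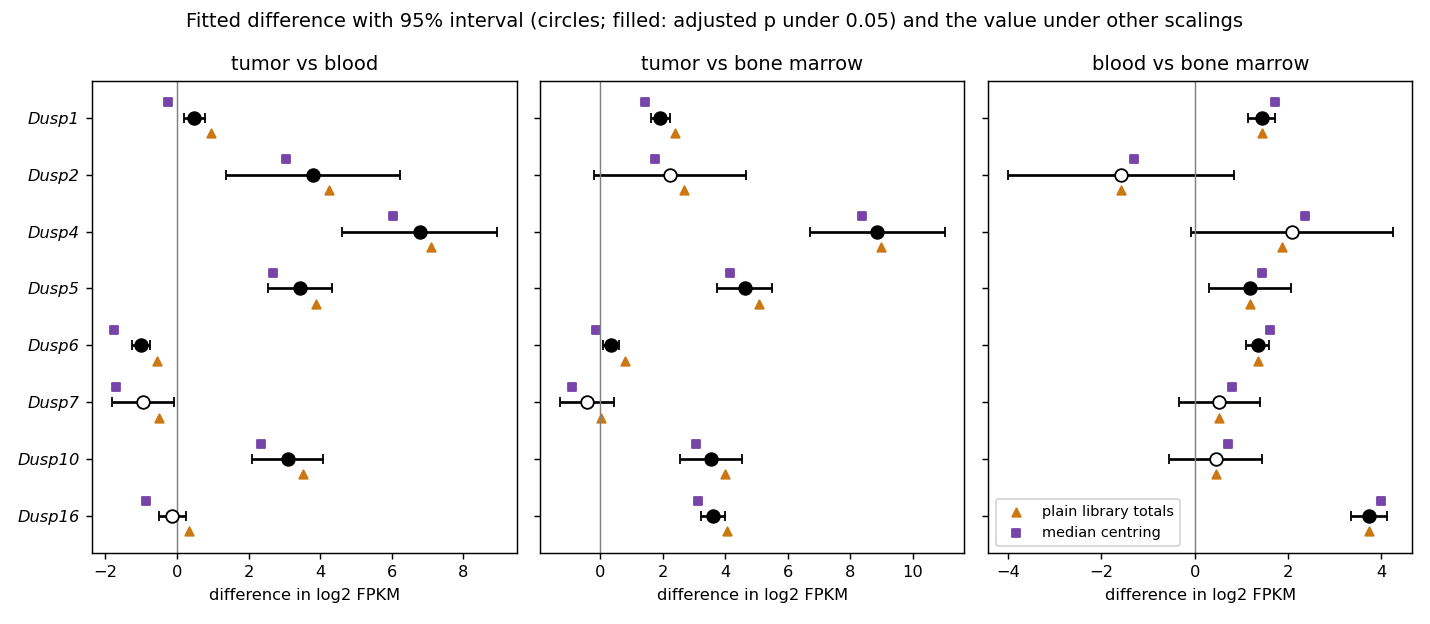
Fitted difference in log2 FPKM (horizontal axes) of each gene in the 3 comparisons, with 95% intervals (circles with bars; filled where the adjusted p was under 0.05), beside the value with plain library totals (triangles) and with median centring (squares). Dusp1 crosses 0 between tumor and blood with median centring, from 0.49 to -0.26, whereas Dusp4, Dusp5 and Dusp10 stay above 0 in both tumor comparisons.

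The deposited FPKM used the whole genomic span of GENCODE M21 for 6 of the 8 members. It used 4258 bases for Dusp6, whose span there is 4259, and 2930 for Dusp1, whose span there is 56539. Levels of different genes were therefore compared as RPM per kilobase of annotated exon. On that scale the members summed to 698 to 813 for bone marrow, 2013 to 2184 for blood and 2480 to 3229 for tumor. Bone marrow was lowest without overlap on the deposited scale and on both others computed, but the order of blood and tumor turned, with 2519 to 2731 for blood against 1796 to 2480 for tumor after median centring and 1729 to 1785 against 3028 to 3503 with plain library totals. Dusp1 alone made up 88.6% ± 1.57 (SD, n = 3) of this sum in bone marrow libraries, 88.9% ± 0.72 for blood and 93.5% ± 1.0 for tumor. The share of Dusp6 was 10.4% ± 1.49 for bone marrow, 9.77% ± 0.57 for blood and 3.69% ± 0.66 for tumor. In the same order Dusp16 took 0.200%, 0.972% and 0.669%, and Dusp5 0.132%, 0.117% and 0.941%. Dusp4 was listed at 0 in bone marrow and took 0.231% in tumor, Dusp10 took 0.0383% and 0.131%, and Dusp7, the smallest share in tumor, 0.222% and 0.0452%. Dusp2 took 0.353% in bone marrow and 0.0809% to 1.45% in the tumor libraries.

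Ratios of 2 members within a library do not depend on how libraries are scaled, and they were computed after the scaling dependence of Dusp1 had been seen. The ratio of Dusp1 to Dusp6 per kilobase of exon was 9.97, 8.62 and 7.26 in bone marrow, 9.81, 8.97 and 8.60 in blood and 24.3, 31.6 and 21.9 in tumor. Bone marrow and blood overlapped, and every tumor library lay above both. The ratio was 2.81-fold higher in tumor than in blood and 3.0-fold higher than in bone marrow (exact two-sided permutation p = 0.1 each, the smallest that 3 against 3 libraries can give), and blood and bone marrow differed 1.07-fold (exact p = 0.7). The ratio of Dusp5 to Dusp6 was 21.8-fold higher in tumor than in blood and 19.6-fold higher than in bone marrow (exact p = 0.1 each). The ratio of Dusp16 to Dusp6 was 5.24-fold higher in blood than in bone marrow and 1.83-fold higher in tumor than in blood (exact p = 0.1 each). Dusp5 to Dusp1 was 7.76-fold higher in tumor than in blood, and Dusp16 to Dusp1 was 0.65 times as high (exact p = 0.1 each). None of these p-values can pass 0.05 in this design, and the 15 ratio comparisons were not adjusted for one another.

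**Figure D3:**
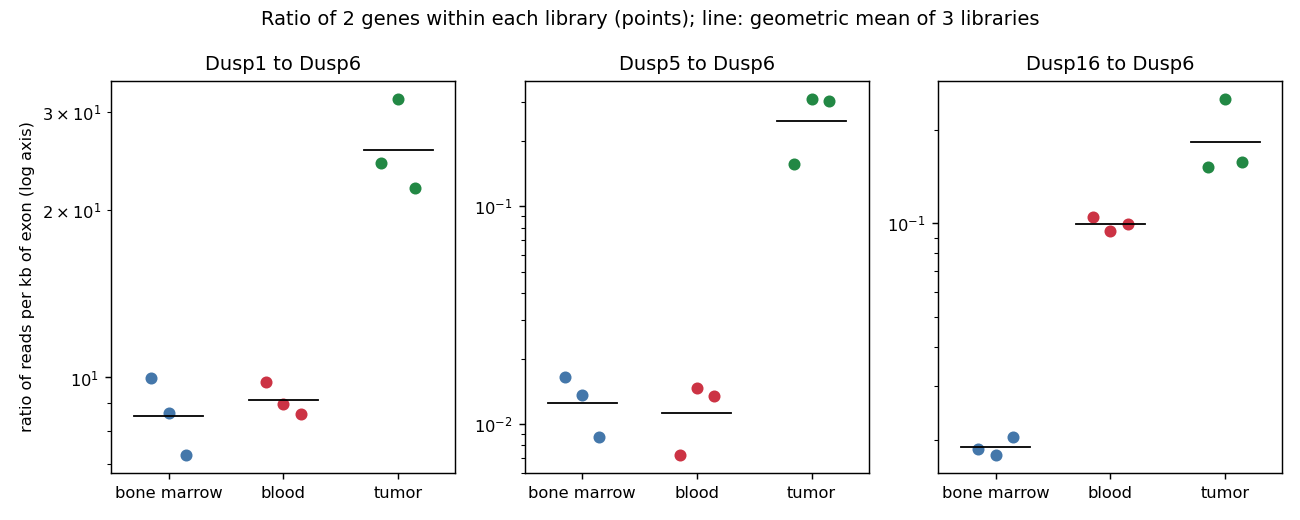
Ratio of reads per kilobase of exon of Dusp1, Dusp5 and Dusp16 to Dusp6 within each library (points; log axes), with the geometric mean of the 3 libraries of a compartment (lines). The Dusp1 to Dusp6 ratio is 7.26 to 9.97 in bone marrow and blood together and 21.9 to 31.6 in tumor.

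The other genes of the pathway were counted as lists in the same fit. Among the remaining family members, Dusp8 (0 to 3 reads per blood library, 8 to 31 in tumor; adjusted p = 0.0279) and Dusp9, a cytoplasmic ERK phosphatase with 0 reads in blood and 8 to 13 per tumor library, were higher in tumor than in blood, Dusp9 at least 6.99-fold (adjusted p = 0.00042), and the catalytically inactive relative Styxl1 was lower (-2.01, adjusted p = 0.0334). Of 10 small atypical dual-specificity phosphatases tested, 3 were higher in tumor than in blood and 2 lower, shares of 10 genes that lie near those of all genes tested (33.8% and 21.1%). The highest were Dusp19, with a ratio of 9.61 (exact 95% counting interval 3.08 to 48.4) against 3 reads in blood, and Dusp14 (2.15, adjusted p = 0.0451), and the lower ones were Dusp3 (-0.98, adjusted p = 0.0228) and Dusp11 (-0.73, adjusted p = 0.0054). Of 6 other phosphatases that act on MAP kinases, Ptprr was higher (3.18, adjusted p = 0.000477) and Ppm1b (-1.0, adjusted p = 0.0149) and Ppm1a (-0.70, adjusted p = 0.0223) were lower. With another scaling of the libraries the 5 lower calls were lost (plain totals), as were those of Dusp8 and Dusp14 (median centring and quantile normalization) and of Dusp19 and Ptprr (quantile normalization).

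For the list of MAP kinases, about as large a share was called between tumor and blood as of all genes tested (33.8% higher and 21.1% lower). Against bone marrow, 26.9% of all genes tested were higher in tumor and 19.5% lower. Of 12 MAP kinases tested, 4 were higher in tumor than in blood and 2 lower (median 0.33), or 1 and 4 with median centring (median -0.42), and 3 were higher and 6 lower in tumor than in bone marrow (median -0.37). Mapk14, which encodes p38 alpha, had 1518 to 2418 reads per blood library and 294 to 430 per tumor library and fell by 2.98 (adjusted p = 5.77e-08), and Mapk13, p38 delta, fell by 1.63 (adjusted p = 2.94e-06). Mapk12, p38 gamma, was higher by 4.21 (adjusted p = 0.0336) on 0 to 5 reads per blood library, and the atypical kinase Mapk6 by 1.68 (adjusted p = 3.34e-05). Of 7 MAP kinase kinases, 4 were higher and 2 lower in tumor than in blood, or 1 and 3 with median centring, and 3 were lower in tumor than in bone marrow while the other 4 did not pass (median -0.59), whereas with plain totals 2 were higher. Map2k6 (2.90, adjusted p = 0.00019) and Map2k3 (-1.35, adjusted p = 1.63e-05), which both activate p38, went opposite ways, though the Map2k6 call was lost with quantile normalization (adjusted p = 0.113). Map2k5 (1.66, adjusted p = 0.0154), which turned to -0.51 with quantile normalization, and Map2k2 (-0.64, adjusted p = 0.0373), which was lost with plain totals, also differed in sign. The Mapk12 call was lost with median centring and quantile normalization, and those of Mapk14, Mapk13, Mapk6 and Map2k3 held under each scaling.

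Upstream, 2 of 13 MAP3 kinases and adaptors were higher in tumor than in blood and 5 lower. Of all genes tested, 33.8% were higher and 21.1% lower in that comparison, and 26.9% and 19.5% in tumor against bone marrow. The stress-activated kinase Zak (3.22, adjusted p = 0.000775) and Tab1 (1.48, adjusted p = 0.000603) were higher, and Map3k3 (-2.24, adjusted p = 1.15e-06) and Map3k5 (-1.98, adjusted p = 3.07e-06) lower. Of 10 RAS and RAF genes 6 were lower, led by the scaffold Ksr1 (-2.02, adjusted p = 0.000105) and the exchange factor Sos2 (-1.70, adjusted p = 0.000108), and Nras was higher (0.76, adjusted p = 0.000166). Of 10 kinases downstream of MAP kinases 4 were lower, with Mknk1 (-1.87, adjusted p = 4.73e-06) and Rps6ka1 (-1.31, adjusted p = 1.31e-05) the lowest, and 2 higher, Mapkapk2 (1.28, adjusted p = 0.000679) and Rps6ka2 (1.13, adjusted p = 0.0366). The median difference was -0.17 for the MAP3 kinases, -0.91 for the RAS and RAF genes and -0.30 for the downstream kinases, where all genes tested had 0.50. With plain totals the first and the last of these turned to 0.28 and 0.14, while that of the RAS and RAF genes was -0.46. Against bone marrow, 5 RAS and RAF genes were lower in tumor and the other 5 did not pass (2 higher and 3 lower with plain totals), 4 downstream kinases were lower and the other 6 did not pass (3 higher and 4 lower with plain totals), and 2 MAP3 kinases and adaptors were called in each direction. The higher calls of Nras, Mapkapk2 and Rps6ka2 were lost with median centring, and that of Zak with quantile normalization.

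Most genes that the pathway is known to switch on were higher in tumor. All genes tested were higher than in blood for 33.8% and lower for 21.1%. Of 6 Sprouty and Spred genes, inhibitors of RAS signaling, 4 were higher than in blood (2 with quantile normalization) and Spry2 was lower (-1.34, adjusted p = 0.00516), though tumor exceeded bone marrow in Spry2 (1.64, adjusted p = 0.00186). Spry1 had 1 read in all of blood and 82 to 133 per tumor library, a ratio of 218 (exact 95% counting interval 38.8 to 8617), and Spry4 a ratio of 117 (20.8 to 4658). Of 8 genes commonly read as ERK output, 7 were higher in tumor than in blood under each scaling (median 6.07, or 5.17 with the gene that had 0 reads in blood set to its lower bound). The receptor Epha2 had a ratio of 173 (59.0 to 841) against 3 reads in blood and Epha4 was higher by 7.51 (adjusted p = 0.000818), while Spry2, which is in this list too, was lower. Dusp6, which is commonly read as ERK output as well, differed by -1.0 in the same comparison. Dusp4 and Dusp5, nuclear members that act on ERK, differed by 6.78 and 3.44, Dusp4 on 0 to 2 reads per blood library.

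Immediate early genes, with which Dusp1, Dusp2, Dusp4 and Dusp5 are usually grouped, were higher in tumor than in blood for 15 of 16 (median 3.34; 13 with median centring), and for 15 of 16 against bone marrow. Nr4a3 had a ratio of 239 (exact 95% counting interval 65.9 to 1976) against 2 reads in blood, and Nr4a2 of 273 (48.7 to 10791) against 1 read. Between blood and bone marrow 7 immediate early genes were higher and 3 lower, beside 13.7% and 18.1% of all genes tested. In tumor, 33.8% of all genes were higher and 21.1% lower than in blood, and 26.9% and 19.5% than in bone marrow. All 10 heat shock genes were higher in tumor than in blood (median 3.10, or 7 of 10 with median centring) and than in marrow (median 2.19, or 8 of 10). Hspb1, with 0 reads in blood, was at least 65.7-fold higher, and Hspa1b had a ratio of 38.7 (10.5 to 323). The part that enzymatic digestion of the tumors had in these lists and in the phosphatases was not tested. Of 6 glucocorticoid target genes, a list that bears on Dusp1 because glucocorticoids induce it, 4 were lower in tumor than in blood, among them Tsc22d3 (-3.07, adjusted p = 6.26e-08) and Zbtb16 (-2.62, adjusted p = 0.000254), and 2 were higher, Klf9 (1.41, adjusted p = 0.042) and Per1 (0.42, adjusted p = 0.035), both lost with median centring, where Per1 turned to -0.33. Against bone marrow, 4 of these 6 were higher in blood, beside 13.7% of all genes tested.

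**Figure D4:**
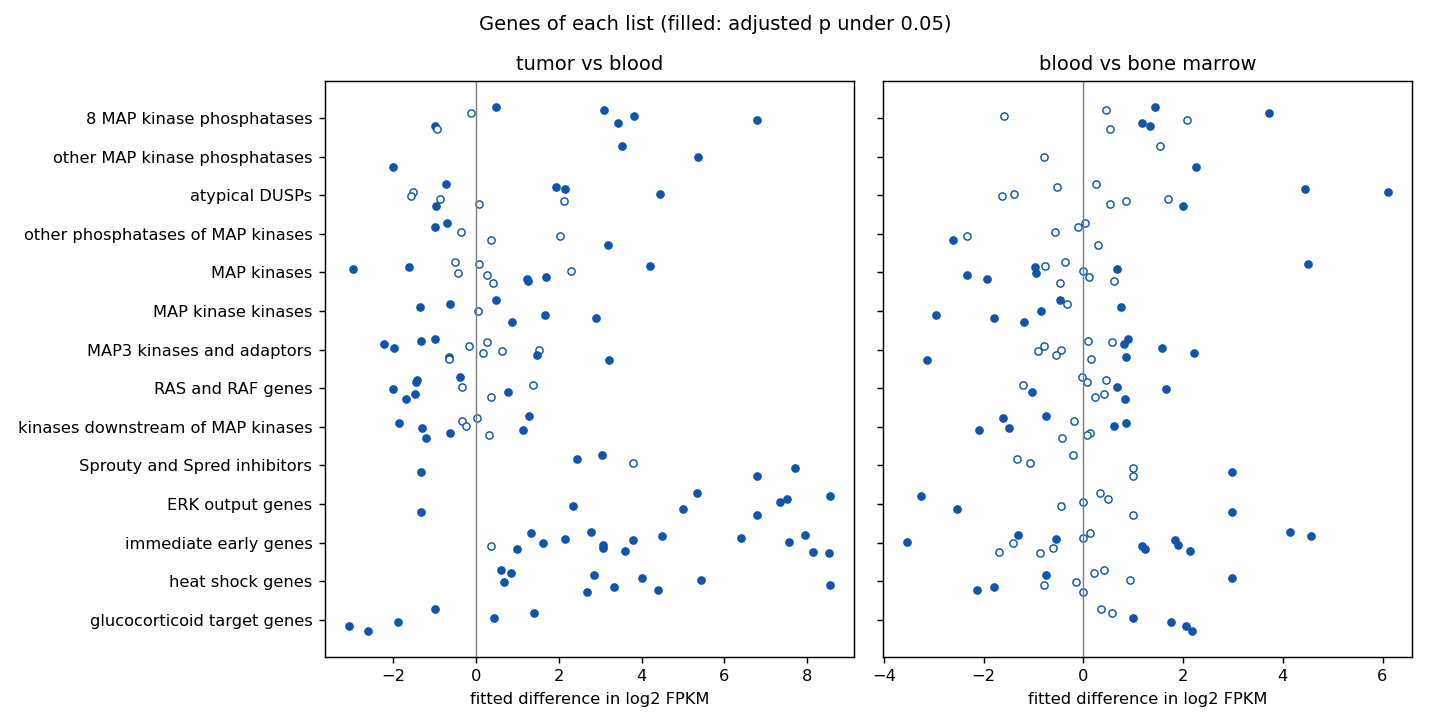
Fitted difference in log2 FPKM (horizontal axes) of each tested gene (points; filled where the adjusted p was under 0.05) in the 8 phosphatases and in the pathway lists, between tumor and blood (left) and between blood and bone marrow (right). Immediate early and heat shock genes lie to the right of 0 between tumor and blood, and the kinase lists lie on both sides; genes with 0 reads in 1 compartment are plotted at fitted values that depend on the small constant in the deposited data.

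The genes most like each member were found as the smallest distances between centred log2 FPKM profiles over the 9 libraries. Alcam (distance 0.168), Flcn (0.387) and Vmp1 (0.554) lay nearest to Dusp1, and Ezr (0.344), Lmbr1l (0.350) and Ctc1 (0.396) nearest to Dusp6. Cobll1 (0.689), Errfi1 (1.11) and Pim3 (1.28) followed the tumor-high pattern of Dusp5 most closely, and Rhbdf1 (0.870), Plxnb1 (0.903) and Ackr3 (0.959) that of Dusp4. For Dusp10 the nearest were Nfkbid (0.961), Rdh10 (0.984) and Ttyh2 (1.02), and for Dusp7 Hnrnpl (0.771), Smg1 (0.793) and Scai (0.820). Cass4 (1.1), Entpd3 (1.16) and Il1bos (1.16) were nearest to the bone-marrow-low pattern of Dusp16. No gene came closer to Dusp2 than Gm16008 (2.40), Gm10382 (2.5) and Adamts2 (2.55). Within the family, Dusp6 and Dusp7 were 1.55 apart and Dusp5 and Dusp10 1.66 apart, whereas Dusp1 and Dusp4 were 9.78 apart.

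Beside the members that were higher in tumor, the markers of other cells varied among the tumor libraries. Tumor epithelium markers summed to 3174, 2513 and 4782 RPM in tumor replicates 1, 2 and 3, Dusp4 stood at 13.4, 15.6 and 22.8 RPM, Dusp10 at 9.99, 9.92 and 12.8 and Dusp5 at 40.6, 73.7 and 78.9. Dusp1, Dusp2 and Dusp16 were highest in replicate 2, where the tumor epithelium markers were lowest, and Dusp6 and Dusp7 were lowest there. Acinar markers summed to 971, 711 and 2735 RPM in tumor replicates 1, 2 and 3, and fibroblast markers to 964, 1055 and 1107. In blood the tumor epithelium markers reached 172 in replicate 2, against 27.6 and 25.4 in replicates 1 and 3. Dusp4 had 0, 1 and 2 reads in blood replicates 1, 2 and 3. Macrophage and monocyte markers were lower in tumor, at 317 to 460 RPM, than in blood, at 1355 to 1541, and lymphocyte markers were 5.16 to 9.79 against 97.5 to 168. Platelet markers summed to 525 to 723 in blood, against at most 11.96 elsewhere. The part of these cells in each phosphatase value was not tested.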

How the data were processed

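RNA of neutrophils sorted from bone marrow, blood and tumor was sequenced in 9 libraries after full-length cDNA synthesis (SMARTSeq v2). The authors mapped reads to GRCm38 with STAR 2.5.2b, counted them with featureCounts 1.5.0 on GENCODE M7 and deposited log2 FPKM; their own tests used limma-voom. Lengths in the deposited log2 values equalled the genomic span for 84.5% of the 46005 genes found in GENCODE M21, from which positions and exon lengths were taken, and 0.25 reads, scaled to each library's size, had been added, so fold changes of genes with few or no reads depend on that constant and can differ from the ratio of their reads. Reads are not corrected for PCR duplicates, so counting intervals and floors cover counting error only.

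Whole reads were recovered from the steps of the values for 46517 genes, within 0.001 reads. Genes with at least 5 reads in at least 1 library (17714) were fitted with limma 3.58.1 in R 4.3.3 (1 coefficient per compartment, eBayes with a variance trend on mean log2 RPM) on the deposited values; a fold change is a difference of these log2 values. Both scripts were tested on simulated data. The members, lists and tests were chosen with earlier results of these data known. Genes named are the members, the 2 largest changes past the threshold in each direction per list between tumor and blood, and the 3 nearest profiles per member; a few others were named after their values were seen. Alternatives covered filters, pseudocounts, scaling, the variance model, limma-voom, the replicate block and leaving out each library. The libraries of a compartment came from separate experiments.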

Additional observations from a re-analysis of the deposited data

How the results depend on the processing

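Over 23 alternatives, the differences of the 8 members gave 549 values, of which 514 kept their direction and their side of the threshold, 24 lost the threshold, 6 gained it and 5 turned their direction. The tumor calls of Dusp4, Dusp5 and Dusp10, the lower Dusp6 in tumor than in blood and the Dusp1 and Dusp16 calls against bone marrow were kept under each alternative run; Dusp10 was not tested with the filter on log2 FPKM over 0 in at least 3 libraries, which drops long genes. The turns were Dusp1 between tumor and blood (-0.26 with median centring, -0.15 with quantile normalization), Dusp6 between tumor and bone marrow (-0.14 with median centring), and, with plain library totals, Dusp16 between tumor and blood (0.32) and Dusp7 between tumor and bone marrow (0.0284). Members lower in tumor than in blood numbered 3 with median centring, 2 with quantile normalization and 1 to 2 when a library was left out. Counts over all genes moved by more than 1.5 times with the FPKM filter, which tests fewer genes (2206 higher between tumor and blood in place of 5996, 1763 between tumor and bone marrow in place of 4770, and 1890 lower between blood and bone marrow in place of 3206), with plain totals (2259 lower between tumor and bone marrow in place of 3459) and with median centring (5957 lower between tumor and blood in place of 3735). The cause of the other changes was not tested.

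The labels number the libraries 1 to 3 in each compartment and do not say whether equal numbers share an experiment. The paper describes the bone marrow and blood neutrophils as from the same mouse as those of the tumor. Deviations of same-numbered libraries correlated at -0.07 to 0.11, over 0.1 in 1 of 9 pairs, and 5 of 9 libraries correlated best with their own number. With 3 libraries per compartment these values cannot decide whether the numbers pair them, and the main fit left pairing out. With the replicate block, 5 members were higher and 1 lower in tumor than in blood, 6 higher in tumor than in bone marrow and 4 higher in blood than in bone marrow, and no call on a member changed. Depth limits Dusp4 outside the tumor, Dusp10 and Dusp7, where a few reads decide a value.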
